A study of Mus musculus with 20 samples.

Results

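The 10 genes described here encode receptors through which sensory neurons and their neighbours read itch cytokines, histamine, leukotrienes and lysophospholipids. They are Il31ra, Osmr, Il4ra and Il13ra1 (cytokine receptors), Hrh1 (histamine), Cysltr2 (leukotrienes), Lpar3 and Lpar5 (lysophosphatidic acid) and S1pr1 and S1pr3 (sphingosine 1-phosphate). The members were listed by name, with earlier results of these data known, and are 10 of the 55416 genes counted. RNA came from the L3 to L5 dorsal root ganglia of 10 C57Bl6 mice (age given as Adult), 1 month after tamoxifen, and each animal gave 1 library labelled formalin, an irritant that causes inflammatory pain, and 1 labelled noninjected. The labels state no dose, site or time for the formalin. Noninjected libraries thus came from animals that also gave a formalin library, and "without injection" below refers to the label of the library. An effect of formalin on the whole animal would be shared by both libraries, and the comparison between them cannot show it. All animals carried floxed alleles of Prdm12, which encodes a transcriptional regulator of nociceptor development, and all received tamoxifen. Controls were Prdm12 Fl/Fl without a Cre, and inducible conditional knockouts (icKO) also carried a tamoxifen-inducible Cre, which the sample characteristics call AdvCreERT2 and the series text Rosa26CreERT2. In the first case the deletion would be driven from the advillin gene of sensory neurons, in the second from a gene active in most cells.

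The records of the genotype differ for 4 of the 10 animals, the sample title and the genotype word in the deposited name, and the groups below follow the deposited name. Named controls were female160, female162, female165, male122 and male126, and named icKO were female159, female161, male124, male159 and male174. The titles call female159 and male124 controls and female162 and female165 icKO. Prdm12 (ENSMUSG00000079466), the targeted gene, had a mean of 90.8 ± 11.8 CPM in named controls and 23.7 ± 6.06 CPM in named icKO (SD, n = 5 and 5 animals, both libraries summed). CPM are counts scaled to a library of 1e+06 counts, after TMM normalization. The lowest named control was at 73.2 CPM and the highest named icKO at 32.7 CPM (exact two-sided permutation p = 0.00794, the smallest this design allows). Grouped by title, its means were 68.2 ± 36.1 CPM for controls and 46.4 ± 37.2 CPM for icKO (exact two-sided permutation p = 0.238). Of the animals whose records differ, female159 and male124 stood at 25.9 and 32.7 CPM, and female162 and female165 at 73.2 and 98.5 CPM. Animals called icKO by both records ran from 18.2 to 23.7 CPM, and animals called control by both from 84.2 to 101 CPM. By Prdm12, all 4 thus lay nearer to the genotype of the deposited name, and each group by title mixes high and low levels. Every direction between genotypes therefore holds for animals as named in the deposit, and the result by title stands beside the main ones.

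The 19 libraries used held 11763893 to 22392635 counts, in groups of 5 noninjected control, 5 formalin control, 5 noninjected icKO and 4 formalin icKO libraries. The formalin library of female161 held 2829 counts, 1 of them on a receptor gene of the 10, and was left out. The formalin library of male174 stood apart, with 7 skeletal muscle genes summing to 1740 CPM and 6 fibroblast genes to 6150 CPM. The skeletal muscle sum was 285 CPM in the male124 formalin library and 9.33 to 36.6 CPM in the other 17. Several receptor results are given with and without the male174 formalin library. The genes of the lists, the correlations with single neuron genes and the nearest genes are given with it only. The ganglion label was checked on 7 pan-neuronal genes, which summed to between 7860 and 12500 CPM, and on 7 satellite glia genes, which summed to between 3810 and 5840 CPM. In bulk tissue, fewer cells of a type and less RNA per cell cannot be told apart.

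As background, the interleukin-31 receptor pairs the Il31ra chain with the Osmr chain, and Osmr also pairs with Il6st to bind oncostatin M. Il4ra pairs with Il13ra1 or Il2rg to bind interleukin-4, and with Il13ra1 to bind interleukin-13, and these chains signal through JAK kinases and STAT factors. The other 6 genes encode G protein-coupled receptors, several of which act through Gq proteins, phospholipase C and channels such as Trpv1 and Trpa1. In mouse ganglia Il31ra, Osmr and Cysltr2 mark the small itch neurons that also express Nppb and Sst (the NP3 class), Lpar3 and Lpar5 are features of Mrgprd neurons (the NP1 class), and S1pr1 is abundant in endothelium.

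Il31ra, Osmr and Cysltr2 varied together over the libraries, as described below, and the 250 bases before the RefSeq start site of each are shown for that reason. They are from the RefSeq promoter table (GRCm38.p6, another build than the GRCm39 of the counts), 5′ to 3′ on the strand of the gene. Capitals mark a match to the STAT motif TTCNNNGAA.
Il31ra, chr13:112580663-112580912, minus strand: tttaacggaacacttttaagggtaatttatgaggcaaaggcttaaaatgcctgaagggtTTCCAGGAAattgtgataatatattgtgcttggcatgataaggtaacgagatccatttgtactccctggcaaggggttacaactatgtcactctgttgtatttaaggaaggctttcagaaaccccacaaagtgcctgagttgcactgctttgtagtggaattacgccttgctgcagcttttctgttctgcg
Osmr, chr15:6874314-6874563, minus strand: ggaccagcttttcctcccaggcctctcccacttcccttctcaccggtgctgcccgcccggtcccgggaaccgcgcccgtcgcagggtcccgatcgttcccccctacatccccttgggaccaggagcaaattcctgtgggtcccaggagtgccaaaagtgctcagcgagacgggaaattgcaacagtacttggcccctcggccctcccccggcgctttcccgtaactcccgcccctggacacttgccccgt
Cysltr2, chr14:73049115-73049364, minus strand: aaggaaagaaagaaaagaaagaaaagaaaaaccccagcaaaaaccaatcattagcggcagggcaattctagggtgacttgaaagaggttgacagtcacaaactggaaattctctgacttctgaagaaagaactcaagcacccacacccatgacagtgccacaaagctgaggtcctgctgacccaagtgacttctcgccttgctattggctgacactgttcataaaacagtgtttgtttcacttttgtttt
Of the 10 genes 9 had a window in that table, with 13 windows in all, and S1pr1 had none. Both strands were searched for TTCNNNGAA, the RUNX motif TGTGGT and the homeodomain motif TAATTA, none of which overlapped another in these windows. The Il31ra window held 1 STAT match, whose first base lies at position -191 from the start site, and the Osmr and Cysltr2 windows held no match to any of the motifs. The STAT motif was found in 7.01% of 32817 windows of this length. Lpar5 held 3 RUNX matches over its windows, a motif found in 14% of all windows, and TAATTA, found in 4.85%, matched no window of the 10 genes. A match of letters is a description and not a binding site.

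All 10 genes passed the filter on low counts. Per kilobase of exon (exon lengths from GENCODE M21), S1pr3 had the highest mean level over the 19 libraries, at 39.5 ± 5.4 CPM per kb, followed by Lpar3 at 22.3 ± 3.73 (SD, n = 19). Each stood above the next gene in the order in 19 of 19 libraries. Osmr (7.88 ± 1.28), Il4ra (7.59 ± 1.04), Cysltr2 (7.2 ± 2.39), S1pr1 (6.58 ± 1.31) and Il31ra (6.4 ± 1.97) came next, and neighbours among these 5 kept their order in only 10 to 12 of 19 libraries. Il13ra1 (5.19 ± 1.12) was below Il31ra in 14 libraries, and Lpar5 (4.08 ± 0.974) was below Il13ra1 in 16. Hrh1, the H1 histamine receptor gene, was the lowest at 0.854 ± 0.137 CPM per kb, below Lpar5 in 19 of 19 libraries, with 37 to 87 counts per library. Between the highest and the lowest library, levels in CPM differed 3.87-fold for Il31ra and 3.59-fold for Lpar5, and 1.69-fold for S1pr3 and 1.7-fold for Hrh1.

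**Figure D1:**
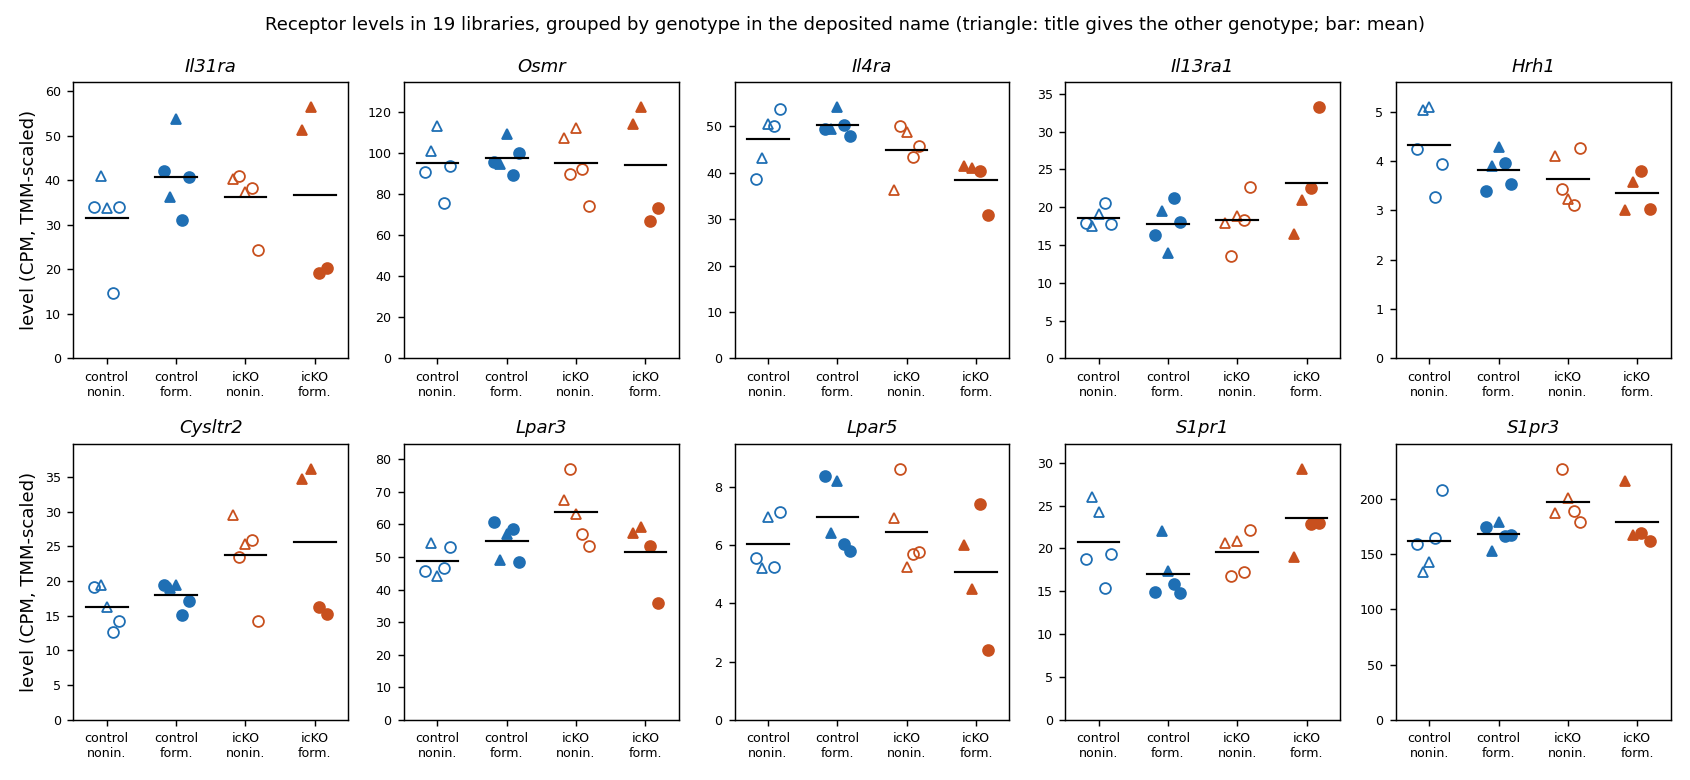
Level of each receptor gene (CPM, linear axis from 0) in each of the 19 libraries, by genotype in the deposited name (blue control, red icKO) and agent (open noninjected, filled formalin). Triangles are animals whose title gives the other genotype, and black bars are group means; the formalin icKO triangles of Il31ra, Osmr and Cysltr2 lie above the circles of the same group.

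Without injection, Lpar3 was the only one of the 10 receptors that passed the test between genotypes, and it was higher in icKO. The other 9 did not pass, with Cysltr2 and S1pr3 nearest to the threshold. Over all genes, 1658 of 17671 tested (9.38%) passed in this comparison, 1035 higher and 623 lower in icKO, so 1 of 10 is near the background. The test was the quasi-likelihood test of edgeR with sex as a covariate, and p-values were adjusted by the Benjamini-Hochberg method over all genes. Of the 10 log2 folds 6 were positive and 4 negative, with a median of 0.09, beside 0 over all genes. None of the 10 had groups that did not overlap, against 8.43% of all genes.

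Lpar3 (ENSMUSG00000036832), a receptor for lysophosphatidic acid, stood at 45.6, 54.3, 44.2, 46.5 and 53 CPM in the noninjected libraries of female160, female162, female165, male122 and male126. In noninjected icKO it stood at 67.6, 77.1, 63.3, 57.1 and 53.4 CPM in female159, female161, male124, male159 and male174. Of the 5 icKO libraries 4 were above every control and male174 was within the control range. The means were 48.7 ± 4.59 and 63.7 ± 9.27 CPM (SD, n = 5 and 5; log2 fold change 0.405, SE 0.119, Benjamini-Hochberg adjusted p = 0.0397 by the quasi-likelihood test of edgeR). The 7 pan-neuronal genes summed to 10300 to 12500 CPM in these icKO libraries and to 9050 to 10800 CPM in the controls, and their part in the Lpar3 difference was not tested.

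The Lpar3 call depended on single animals, and it was not kept by title, a grouping that mixes high and low Prdm12. By title the log2 fold was 0.02 (adjusted p = 0.976), and over the 6 animals whose records agree it was 0.37 (adjusted p = 0.202), both by the same test. The call was lost without any one of female159, female160, female161, female162, female165, male122, male124 or male159, with log2 folds of 0.33 to 0.43, and was kept without male126 or male174. It was also lost without the sex term (0.39, adjusted p = 0.0608).

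Cysltr2 (ENSMUSG00000033470), a cysteinyl leukotriene receptor gene, had the largest log2 fold of the 10 without injection, 0.624 (SE 0.206), with an adjusted p of 0.0633 by the quasi-likelihood test of edgeR. It stood at 19.1, 19.5, 16.2, 12.7 and 14.2 CPM in noninjected female160, female162, female165, male122 and male126. In noninjected icKO it stood at 29.6, 23.5, 25.3, 26 and 14.3 CPM in female159, female161, male124, male159 and male174. Here too 4 of 5 icKO libraries exceeded every control, and male174 was within the control range. DESeq2, fits of only the noninjected libraries or with no filter, and fits without male124, without male174 or without its formalin library alone called it, with log2 folds of 0.58 to 0.71. By title the log2 fold was -0.06.

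S1pr3 (ENSMUSG00000067586), a sphingosine 1-phosphate receptor gene, averaged 162 ± 28.6 CPM in noninjected controls and 197 ± 18.8 CPM in noninjected icKO (SD, n = 5 and 5). The log2 fold was 0.282 (SE 0.107, adjusted p = 0.0988 by the quasi-likelihood test of edgeR), and the groups overlapped through male126, the highest control at 208 CPM; without that animal S1pr3 passed. For the other 7 genes the noninjected log2 folds ran from -0.221 for Hrh1 (95% interval -0.53 to 0.08) to 0.306 for Il31ra (-0.29 to 0.9). The interval was -0.3 to 0.13 for Il4ra and -0.26 to 0.36 for Osmr, and wider for Lpar5 (-0.31 to 0.57). The plot of log2 folds shows these intervals for each comparison.

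**Figure D2:**
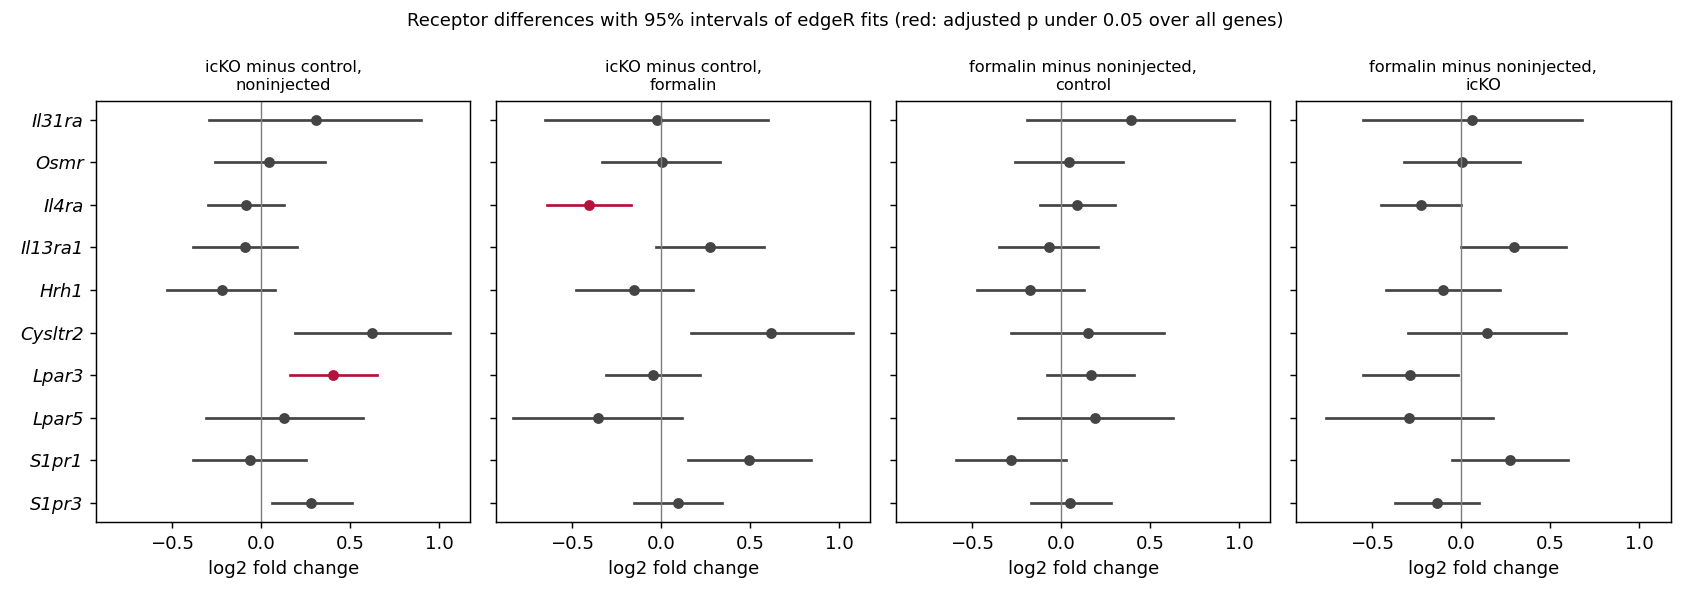
Log2 fold change of each receptor gene with its 95% interval in edgeR's fit, for icKO minus control without and with formalin and for formalin minus noninjected in each genotype; red marks an adjusted p under 0.05 over all genes. Lpar3 at 0.405 in noninjected libraries and Il4ra at -0.402 in formalin libraries are the genes marked.

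With formalin, Il4ra was the only receptor of the 10 that passed between genotypes, and it was lower in icKO. Over all genes 699 of 17671 (3.96%) passed, 539 higher and 160 lower, and 1 receptor is too few to set apart from that share. Of the 10 log2 folds 5 were positive and 5 negative (median -0.01, beside 0 over all genes). Il4ra was also the only one whose groups did not overlap, against 5.67% of all genes.

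Il4ra (ENSMUSG00000030748), the shared receptor chain for interleukin-4 and interleukin-13, stood at 49.5, 49.4, 54.1, 50.3 and 47.9 CPM in formalin libraries of female160, female162, female165, male122 and male126. In formalin icKO it stood at 41.4, 41, 40.5 and 30.9 CPM in female159, male124, male159 and male174. The controls lay within a narrow range, 3 of the icKO libraries lay close together below it, and male174 was lower again. The means were 50.2 ± 2.32 and 38.5 ± 5.03 CPM (SD, n = 5 and 4; log2 fold change -0.402, SE 0.112, Benjamini-Hochberg adjusted p = 0.0478 by the quasi-likelihood test of edgeR). In noninjected libraries the same gene had means of 47.2 ± 6.16 CPM in controls and 44.8 ± 5.49 CPM in icKO, with a log2 fold of -0.085 (SE 0.103). The difference between these genotype effects had a log2 value of -0.318 (SE 0.149) and an adjusted p of 0.204 by the quasi-likelihood test of edgeR.

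The Il4ra call was lost with the animal as a random block (log2 fold -0.41, adjusted p = 0.0722, limma-voom), and without the male174 formalin library (-0.33, adjusted p = 0.117, edgeR). It was also lost in the fit of only the formalin libraries (-0.37), in the 6 agreeing animals (-0.48, adjusted p = 0.0716) and by title (-0.08, adjusted p = 0.846). Among the fits that left out 1 animal it was kept without female159 or female161, and lost without any one of the other 8, at log2 folds of -0.33 to -0.44. Beside it, 6 neutrophil genes summed to 577 to 2620 CPM in the formalin icKO libraries and 144 to 685 CPM in the formalin controls, and 6 erythroid genes to 386 to 1650 against 142 to 312 CPM. The 7 pan-neuronal genes summed to 7860 to 11100 against 10000 to 11600 CPM. Over the 19 libraries Il4ra had a Pearson r of -0.66 with the neutrophil sum, -0.66 with the erythroid sum and 0.61 with the pan-neuronal sum, and without the male174 formalin library -0.62, -0.49 and 0.36. The part of these cells in the Il4ra difference was not tested.

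S1pr1 (ENSMUSG00000045092), a sphingosine 1-phosphate receptor gene known from endothelium, stood at 14.9, 22, 17.4, 15.9 and 14.8 CPM in formalin controls in the same animal order. In formalin icKO it stood at 19, 29.3, 22.9 and 23 CPM in female159, male124, male159 and male174. Of the icKO libraries 3 were above every control and female159 was not (log2 fold 0.495, SE 0.163, adjusted p = 0.0963 by the quasi-likelihood test of edgeR). It passed in the 6 agreeing animals (0.58, adjusted p = 0.0354, the same test), without female159 (0.66) and without female162 (0.57). By title its log2 fold was 0.18. The 8 endothelial genes summed to 152 to 260 CPM in formalin icKO and 121 to 206 CPM in formalin controls, and S1pr1 had a Pearson r of 0.77 with that sum over the 19 libraries. It also had r of 0.67 with the pericyte and smooth muscle sum and 0.51 with the skeletal muscle sum (0.69 and 0.62 without the male174 formalin library). The male124 library, the highest of these 9 for S1pr1, held skeletal muscle genes at 285 CPM. The part of these cells in the S1pr1 values was not tested.

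Il13ra1 (ENSMUSG00000017057), the partner chain of Il4ra, averaged 17.8 ± 2.77 CPM in formalin controls and 23.3 ± 7.11 CPM in formalin icKO (SD, n = 5 and 4). Its log2 fold was 0.274 (95% interval -0.03 to 0.58) and did not pass. The highest library was male174 at 33.2 CPM, the library with the highest skeletal muscle and fibroblast sums, and the other 3 icKO libraries ran from 16.4 to 22.5 CPM. Lpar5 (ENSMUSG00000067714), a further lysophosphatidic acid receptor gene, was lowest in the same library, at 2.4 CPM, with the other 3 at 4.5 to 7.4 CPM and the formalin controls at 5.8 to 8.39 CPM (log2 fold -0.356, 95% interval -0.83 to 0.12). Without that library the log2 folds were 0.08 for Il13ra1 and -0.16 for Lpar5. Lpar3, higher in icKO without injection, had a log2 fold of -0.047 (95% interval -0.31 to 0.22) with formalin. The difference between its genotype effects was -0.451 (SE 0.173, adjusted p = 0.144 by the quasi-likelihood test of edgeR), and -0.33 without the male174 formalin library.

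In formalin icKO, the NP3 receptors Il31ra, Osmr and Cysltr2 each split into a pair of high and a pair of low libraries, so their group means hide the spread. Il31ra (ENSMUSG00000050377) stood at 51.3 CPM in female159 and 56.4 in male124, and at 19.2 in male159 and 20.3 in male174. Osmr (ENSMUSG00000022146) stood at 114 and 122 CPM in the former animals and at 66.6 and 73 in the latter. Cysltr2 stood at 34.8 and 36.2 CPM against 16.2 and 15.2. For all 3 genes the high pair is the pair that the titles call control, and the low pair is called icKO by both records. In their noninjected libraries, Il31ra stood at 40.3 and 37.3 CPM in the high pair and 38.4 and 24.4 in male159 and male174. Cysltr2 stood at 29.6 and 25.3 against 26 and 14.3 CPM, so for these genes the pairs did not part. Osmr stood at 107 and 112 against 92.3 and 73.9 CPM.

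The formalin controls lay between or among the values of the high and low formalin icKO pairs. They stood at 42.1, 36.2, 53.7, 31.2 and 40.8 CPM for Il31ra, in female160, female162, female165, male122 and male126, and at 95.4, 94.3, 109, 89 and 100 CPM for Osmr. For Cysltr2 they stood at 19.4, 19, 19.5, 15.1 and 17.1 CPM, below the high icKO pair and level with the low one. By deposited name the formalin log2 folds were -0.024 (SE 0.296) for Il31ra, 0.004 (SE 0.157) for Osmr and 0.62 (SE 0.217, adjusted p = 0.124 by the quasi-likelihood test of edgeR) for Cysltr2. Over the 6 agreeing animals they were -0.82 for Il31ra, -0.42 for Osmr and -0.01 for Cysltr2, and by title -0.58, -0.33 and -0.52, and none of these 6 values passed. The high level of Cysltr2 in named icKO with formalin thus came from female159 and male124, whose records differ. Their Prdm12 levels were 25.9 and 32.7 CPM (both libraries summed), below every named control, the lowest of which was at 73.2 CPM. These libraries also differed in other cells: neutrophil genes summed to 577 CPM in female159, 982 in male124, 2620 in male159 and 1270 in male174, fibroblast genes to 1620, 2190, 2680 and 6150 CPM, and skeletal muscle genes to 12.2, 285, 29 and 1740 CPM, and their part in the split was not tested.

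**Figure D3:**
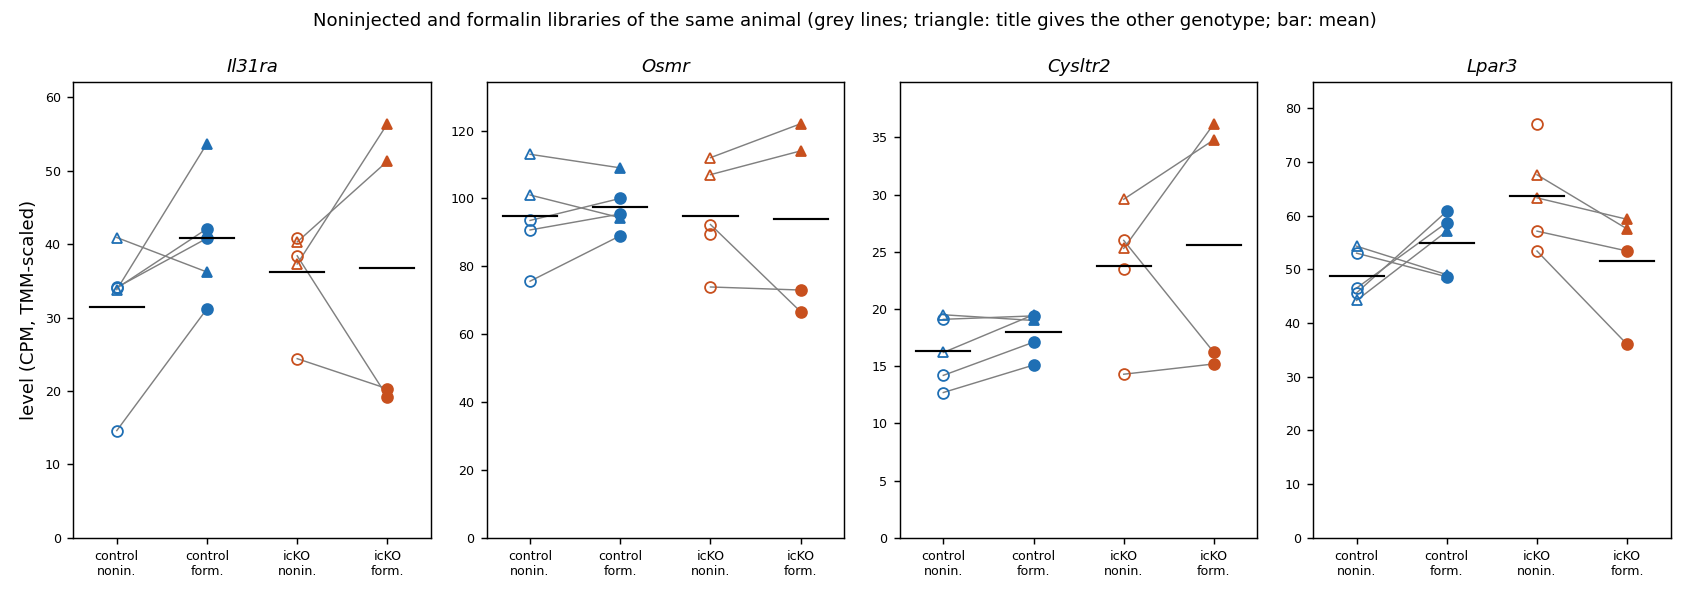
Levels of Il31ra, Osmr, Cysltr2 and Lpar3 (CPM, linear axis from 0), with grey lines joining the noninjected (open) and formalin (filled) libraries of an animal; triangles are animals whose title gives the other genotype, and bars are group means. In icKO the Il31ra lines of female159 and male124 go up to 51.3 and 56.4 CPM and those of male159 and male174 go down to 19.2 and 20.3 CPM, and the icKO noninjected point without a line is female161.

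Between formalin and noninjected libraries none of the 10 receptors passed the test in either genotype. Nor did any other gene in edgeR's quasi-likelihood test: 0 of 17671 genes (0%) passed in controls, with 672 at an unadjusted p under 0.05 and 2 called by DESeq2. In icKO 0 (0%) passed, with 4147 at an unadjusted p under 0.05 and 1106 called by DESeq2. The test of whether the formalin effect differed between genotypes also called 0 genes (0%), with 4195 at an unadjusted p under 0.05 and 793 called by DESeq2. None of the 10 was among the DESeq2 calls. For each of the 10 the formalin and noninjected libraries overlapped, in controls and in icKO, while 0.73% of all genes had groups that did not overlap in controls and 4.3% in icKO.

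In controls the largest formalin log2 fold was that of Il31ra, 0.391 (95% interval -0.19 to 0.97), from 31.5 ± 9.9 to 40.8 ± 8.39 CPM (SD, n = 5 and 5). It was higher with formalin in 4 of 5 animals, and female162 was the exception, at 40.9 CPM without and 36.2 CPM with formalin. S1pr1 was lower with formalin in 4 of 5 controls (log2 fold -0.283, 95% interval -0.59 to 0.03). Lpar3 was higher with formalin in 3 of 5 controls and in 0 of 4 icKO. In those icKO animals it went from 67.6 to 57.5 CPM in female159, 63.3 to 59.3 in male124, 57.1 to 53.4 in male159 and 53.4 to 36 in male174 (log2 fold -0.285, SE 0.126, adjusted p = 0.183 by the quasi-likelihood test of edgeR; -0.16 without the male174 formalin library). Il4ra was higher in 4 of 5 controls and 1 of 4 icKO, and Osmr in 3 of 5 and 2 of 4. Neither the animal as a fixed block nor as a random one called a receptor of the 10.

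Summing both libraries of an animal (for female161 its noninjected library alone), 0 of the 10 receptors passed between named genotypes, against 204 of 18787 genes (1.09%). Of the 10, Cysltr2 and S1pr3 had an unadjusted p under 0.05. Cysltr2 was at 17.1 ± 2.32 CPM in control and 23.9 ± 7.03 CPM in icKO animals (SD, n = 5 and 5; log2 fold change 0.558, SE 0.161, adjusted p = 0.131 by the quasi-likelihood test of edgeR), and DESeq2 called it. Hrh1 (ENSMUSG00000053004) was the only one of the 10 whose animals did not overlap, against 4.16% of all genes. It was at 3.61 to 4.67 CPM in named controls and 3.28 to 3.55 CPM in named icKO (log2 fold -0.197, SE 0.115, adjusted p = 0.403 in the same test). Lpar3 lay between 50.9 and 52.3 CPM in all 5 control animals and between 43.4 and 78.3 CPM in icKO.

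Across libraries the receptors of the NP3 class varied together. Over the 19 libraries Il31ra had a Pearson r of 0.86 with Osmr (Spearman rho 0.74), its partner chain, and 0.73 with Cysltr2 (rho 0.8), and Osmr had 0.68 with Cysltr2 (rho 0.68). Over the 10 noninjected libraries alone, 1 per animal, these r were 0.71, 0.74 and 0.57, and over the 9 formalin libraries 0.98, 0.71 and 0.77. Sst, the somatostatin gene of NP3 neurons, had r of 0.72, 0.55 and 0.68 with Il31ra, Osmr and Cysltr2, and Htr1f, a serotonin receptor gene of the same cells, 0.77, 0.67 and 0.6. Nppb, which encodes the itch neuropeptide of these cells, did not share the pattern, with r of 0.02, 0.1 and -0.04, and neither did the neuropeptide gene Nts, with -0.22, -0.09 and 0.07. Nppb stood at 18.1 CPM in formalin female159, 33.5 in male124, 14 in male159 and 28.7 in male174. Libraries share animals, depth and tissue makeup, so these correlations are descriptions.

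Lpar5 had its highest r in the NP1 list with Mrgprd, the receptor gene that defines that class (0.87, rho 0.84), and with Plxnc1 (0.82). Lpar3 had its highest r there with P2rx3, an ATP-gated channel gene (0.79, rho 0.65), and had 0.52 with Mrgprd (rho 0.18). In that list r was lowest with Grik1 for Lpar3 (-0.07) and with Ptgdr for Lpar5 (0.09). S1pr3 had r of 0.66 with P2rx3 (rho 0.77). The r of Lpar3 with Lpar5 was 0.62, or 0.32 without the male174 formalin library. With the pan-neuronal sum, Lpar3 and Lpar5 each had r of 0.74, and 0.59 and 0.51 without that library. Lpar5 had r of -0.87 with the skeletal muscle sum, and -0.64 without that library. Il13ra1 went the other way from the neuronal receptors, with r of -0.8 with Lpar5 (-0.55 without that library) and -0.65 with Il31ra (-0.6 without it). Il13ra1 had r of 0.82 with the fibroblast sum and -0.76 with the pan-neuronal sum, and 0.65 and -0.58 without that library. Its r was also 0.79 with the macrophage, 0.77 with the skeletal muscle, 0.7 with the mast cell and 0.6 with the endothelial sum. Without that library these were 0.58, 0.49, 0.58 and 0.72, so the fibroblast sum was not set apart. S1pr1 had r of 0.77 with the endothelial sum and 0.76 without that library, and S1pr3 0.68 with the pan-neuronal sum and 0.78 without it.

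**Figure D4:**
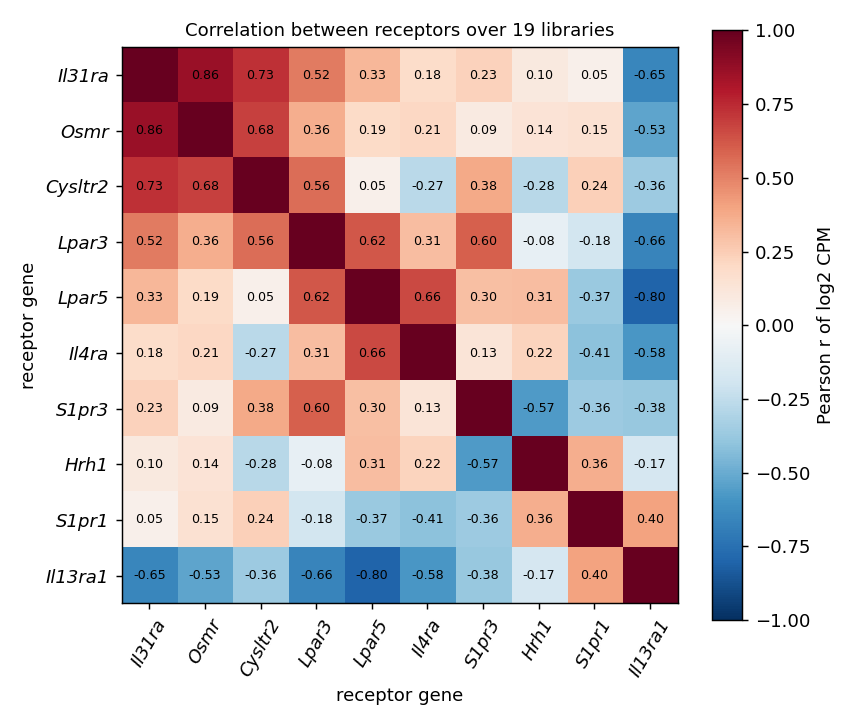
Pearson r of log2 CPM between the 10 receptor genes over 19 libraries, with the value in each cell and a colour scale from -1 (blue) to 1 (red). Il31ra, Osmr and Cysltr2 form a block with r of 0.68 to 0.86, and Il13ra1 has negative r with every gene but S1pr1.

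Among 14304 genes searched, the genes whose levels were most like Il31ra over the 19 libraries were Cramp1l (r 0.88), Tmem131l (0.87) and Ranbp17 (0.86). For Osmr they were Gnb4 (0.88), Rdh13 (0.88) and Il31ra itself (0.86), the only time that a receptor of the 10 was among the top 3 genes of another. Cysltr2 was nearest to Lgals9 (0.87), Lpar3 to Syt9 (0.89), Lpar5 to Abr (0.91) and S1pr1 to Filip1l (0.92). Il4ra was nearest to Ret (0.85) and next to Sars (0.84). Il13ra1 was nearest to Peli1 (0.93) and S1pr3 to Tmem38a (0.83), while Hrh1, the one of the 10 with the fewest counts, had no gene above 0.74 (Rep15).

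The partners and signalling genes of the cytokine receptors were given by lists. Over all genes 9.38% passed between genotypes without injection and 3.96% with formalin, and the counts of this and the following lists stand beside those shares. With formalin, 205 genes passed without the male174 formalin library in place of 699, and 68 to 1485 when 1 animal was left out. The calls of single list genes are not given for these fits. Of 10 cytokine receptor partners 0 passed without injection. Il6st, which pairs with Osmr, averaged 603 ± 89.3 CPM in noninjected controls and 627 ± 82.5 in noninjected icKO (SD, n = 5 and 5). With formalin 2 of 10 were higher in icKO, Il6ra, the interleukin-6 receptor gene (log2 fold 0.877, SE 0.213), and Il17ra, the interleukin-17 receptor gene (1.119, SE 0.274). In the same comparison 4 of 6 lymphocyte genes were higher (median log2 fold 1.57), the 6 neutrophil genes had a median of 2.12 with 2 of them higher, and the 7 pan-neuronal genes had negative folds (median -0.13) with 0 passing. The part of these cells in the Il6ra and Il17ra differences was not tested. Of 14 JAK-STAT genes 2 were higher in noninjected icKO, Stat3 (288 ± 30.2 to 379 ± 45 CPM; log2 fold change 0.416, SE 0.096) and the feedback inhibitor gene Socs1 (0.842, SE 0.23), and 0 passed with formalin. Stat6, which acts downstream of Il4ra, had log2 folds of -0.005 (SE 0.074) without and -0.093 (SE 0.08) with formalin.

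Of 19 genes for ligands and their synthesis 15 had enough counts to test. Without injection 1 was higher in icKO, Sphk2, a kinase gene that makes sphingosine 1-phosphate (25.6 ± 0.992 to 33.9 ± 3.96 CPM; log2 fold change 0.417, SE 0.099). With formalin 3 were higher in icKO, Alox5 (3 ± 1.29 to 9.09 ± 5.57 CPM; log2 fold change 1.563, SE 0.387) and Alox5ap (1.173, SE 0.319), which make leukotrienes, and Osm, the oncostatin M gene (0.476 ± 0.248 to 1.08 ± 0.349 CPM; 1.338, SE 0.357). Of 10 related receptors tested of 14, 0 passed without injection and 1 was higher in formalin icKO, Ltb4r1, a leukotriene B4 receptor gene (2.101, SE 0.568). Neutrophils and macrophages are known to express Alox5, Alox5ap, Osm and Ltb4r1, and in the same libraries 2 of 6 neutrophil genes and 6 of 6 erythroid genes were higher in icKO. The 6 neutrophil genes had positive folds with a median log2 of 2.12, and the 8 macrophage genes with a median of 0.43. The part of these cells in the ligand genes was not tested.

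Of 13 G protein and channel effector genes 2 were higher in noninjected icKO, Gna11 (log2 fold 0.377, SE 0.085), a Gq family gene, and Gna12 (0.317, SE 0.09). With formalin 1 was higher, Plcb2, a phospholipase C gene of blood cells (1.386, SE 0.376), 1 was lower, and 11 of the 13 log2 folds were negative (median -0.12, beside 0 over all genes). Of 7 itch neuron genes of the NP2 and NP3 classes, 1 was higher in noninjected icKO, Sst (5.26 ± 2.94 to 7.67 ± 3.58 CPM; 0.836, SE 0.211). The genotypes overlapped for Sst, and its noninjected icKO median, 5.96 CPM, was below the control median, 6.21 CPM. The mean of Nppb, also of NP3 neurons, went the other way without passing (21.2 ± 3.52 to 14.8 ± 0.744 CPM). Mrgprb5, of a family of near-identical receptors whose reads can be split uncertainly, was lower in noninjected icKO (11.7 ± 1.82 to 3.24 ± 0.688 CPM; -1.932, SE 0.233). Mrgprb5 was also lower with formalin (-1.651, SE 0.244). Of 6 NP1 genes, Grik1, a kainate receptor gene, was lower without (-0.878, SE 0.102) and with formalin (-0.979, SE 0.111). Adjusted p for the named genes that passed ran from 4.88e-05 (Grik1) to 0.035 (Gna12) without and from 4.06e-05 (Grik1) to 0.0473 (Alox5ap) with formalin, by the quasi-likelihood test of edgeR adjusted over all genes. By title 0 genes of the whole table passed in either genotype comparison.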

How the data were processed

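The authors deposited raw counts per Ensembl gene, 1 table per library. The submitters' processing notes name the GRCm39 build, featureCounts 2.0.1, STAR 2.7.8a and bcl2fastq 2.20.0.422; the annotation release is not stated in these sources. Per the labels' protocols the polyA libraries do not mark the strand, so reads of overlapping genes cannot be assigned by strand. Symbols matched 52083 of 55416 IDs (94%). Totals ran from 11763893 to 22392635 counts; of the 10 receptors Hrh1 had the fewest, 37 to 87 counts per library.

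Counts were tested with edgeR 4.0.16 in R 4.3.3 (quasi-likelihood, robust, TMM, filterByExpr, sex as covariate), with Benjamini-Hochberg adjustment over all genes and a threshold of 0.05. The 4 groups of 19 libraries shared each gene's estimate of the dispersion, and animal totals were fitted separately. The scripts were tested on simulated data. Alternatives were RLE scaling, DESeq2 1.42.0, no filter, no sex term, grouping by title, the 6 agreeing animals, leaving out each animal or the male174 formalin library, fits of only the libraries compared, and replicate blocks (limma 3.58.1 for the random one).

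Both libraries of an animal carry its number in the deposited names and so are paired; within pairs, deviations from group means had correlations of 0.01 to 0.41 over 9 pairs, 8 of them over 0.1. Members and lists were chosen with earlier results of these data known. Named genes are Prdm12, the 10 members, up to 3 genes per list past the threshold with the smallest p or the 1 with the smallest p, and the 3 genes with the highest r for each member. Only those relevant to the receptors are printed, and 1 gene of the effector list is not reported here; Il6st, Stat6, Nppb, Nts, Htr1f, Mrgprd, Plxnc1 and P2rx3 are named for their role.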

Additional observations from a re-analysis of the deposited data

Results flagged for a closer look

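Of 44 group values tested for a sample far from the others, 5 were found, and chance gives about 1 in 20. Il31ra in noninjected controls was at 14.6 CPM in male122, with the nearest library at 33.8 and the highest at 40.9 CPM. In noninjected icKO it was at 24.4 CPM in male174, with the others at 37.3 to 40.9 CPM. Il4ra in formalin icKO was at 30.9 CPM in male174, the library with the highest skeletal muscle sum (1740 CPM, beside 285 in male124), with the others at 40.5 to 41.4 CPM. S1pr3 in formalin icKO was at 216 CPM in female159, above the others at 162 to 169 CPM. Prdm12 in noninjected icKO was at 38.9 CPM in male124, above the others at 22.2 to 23.3 CPM.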

How the results depend on the processing

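Of 1170 log2 folds of single receptors recomputed, 1125 stayed on their side of the threshold, 26 lost and 19 gained a call, and 120 had the other sign, none of them past the threshold before or after. Counts below are receptors of the 10, then all genes, where either moved by over 1.5 times. Without injection (1 and 1658) they were 3 receptors without a filter (Lpar3, Cysltr2 and S1pr3), 0 and 1104 without the sex term, 0 and 0 by title, 0 and 831 in the 6 agreeing animals, and 2 receptors with DESeq2, without the male174 formalin library or in a fit of only the libraries compared. Leaving out an animal gave 0 to 2 receptors and 348 to 2129 genes. With formalin (1 and 699) they were 3 (Il4ra, Cysltr2 and S1pr1) and 2129 without a filter, 1052 genes without the sex term, 0 and 0 by title, 1615 genes in the agreeing animals, 0 and 205 without the male174 formalin library, 0 and 31 in a fit of only the libraries compared, 0 and 326 with the animal as a random replicate block, and 1226 genes with DESeq2. Leaving out an animal gave 0 to 2 receptors and 68 to 1485 genes. With the title number as a replicate block, 0 receptors and 0 genes passed in either comparison and in animal totals. For formalin in controls (0 and 0), no filter gave 1 receptor (Il31ra) and 430 genes, and DESeq2 2 genes. For formalin in icKO (0 and 0), no filter gave 2203 genes, the agreeing animals 448, DESeq2 1106 and leaving out an animal 0 to 1990. For the difference of the formalin effects (0 and 0), no filter gave 2 receptors (Lpar3 and S1pr1) and 2519 genes, the agreeing animals 65, DESeq2 793 and leaving out an animal 0 to 1762. For animal totals (0 and 204), no filter and DESeq2 each gave 1 receptor (Cysltr2), with 1811 and 807 genes, grouping by title 0 genes, leaving out the male174 formalin library 342, and leaving out an animal 0 to 1 receptors and 78 to 282 genes. Under the named grouping, the animal as a replicate block changed the Il4ra call and no other call of the 10. The cause of these changes was not tested. With 37 to 87 counts per library, Hrh1 is the receptor whose values depth limits most.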
